A study of Mus musculus with 22 samples.

Results

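The genes described here encode the uptake machinery for filtered proteins in the kidney: Lrp2 (megalin), Cubn (cubilin), Amn (amnionless), Dab2, Clcn5, and Ocrl. They were chosen by name, with no threshold on measured values, and all 6 were found among the 32858 mouse genes of the count table. All 6 also passed the filter on low counts, which left 17131 genes for testing. Kidney RNA was sequenced from male C57Bl6/J mice aged 8 to 10 weeks, with 1 library per mouse. Of the 22 mice, 5 received vehicle and 6 received KW6002 (istradefylline, an adenosine receptor antagonist) at 3 mg/kg daily from day -5 to day 7. Another 5 received cisplatin, a platinum chemotherapy drug that injures the kidney, as 6 daily injections of 3 mg/kg into the peritoneum, and 6 received both drugs. Cisplatin-treated mice were killed 72 hours after the last injection. KW6002 was dissolved in DMSO, cremophor, and saline, and whether mice given cisplatin alone also received this carrier is not stated in the sources used here. The question posed by the design is how KW6002 alters the response of the kidney to cisplatin.

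Proximal tubule cells retrieve albumin, vitamin carrier proteins, and small hormones from the filtrate. Megalin and cubilin are the large apical receptors that bind these ligands, and amnionless carries cubilin to the membrane and anchors it there. Dab2 is an adaptor that links the receptor tails to the clathrin coat, ClC-5 (from Clcn5) is an endosomal chloride/proton exchanger needed for acidification, and OCRL is a phosphoinositide 5-phosphatase that acts on endosomal membranes. Inherited loss of megalin, cubilin, amnionless, ClC-5, or OCRL causes urinary loss of low-molecular-weight proteins or of albumin.

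On the mm10 mouse genome, Lrp2 (ENSMUSG00000027070) spans positions 69424340 to 69586065 of chromosome 2 on the minus strand, and Cubn (ENSMUSG00000026726) spans 13276338 to 13491813 of the same chromosome and strand. Amn (ENSMUSG00000021278) lies at 111271095 to 111276426 of chromosome 12 on the plus strand, and Dab2 (ENSMUSG00000022150) at 6299788 to 6440712 of chromosome 15 on the plus strand. The 2 X-linked members are Clcn5 (ENSMUSG00000004317), at 7153810 to 7319358 on the minus strand, and Ocrl (ENSMUSG00000001173), at 47912387 to 47965868 on the plus strand. All 6 are protein-coding. Counts fall on their exons, which are merged over all transcripts and measure from 1843 bases in Amn to 16701 bases in Lrp2. Cubn shares 368 of its 14935 exon bases with Gm13270 on the other strand, which collected 324 counts over the 22 libraries against 478041 for Cubn. Genes inside Dab2 and Clcn5 held at most 11 counts each.

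The sequences before the start sites of 5 members are shown. Lrp2, Cubn, Amn, and Clcn5 were lower with cisplatin and higher when KW6002 was added to it, and Ocrl was neither. Dab2 was lower with cisplatin, was not detectably changed when KW6002 was added, and is not shown. The choice was made from these same results, and no link between sequence and expression was tested. RefSeq lists 8 start sites for the 6 genes in GRCm38.p6, the build of the files, and up to 250 bases before the first start of each gene are given here in the direction of transcription, without bases that GENCODE places inside the gene. Capitals mark matches to the binding elements of the transcription factors HNF1 and HNF4, which are factors of the proximal tubule.
Lrp2 (chr2:69586066-69586279, - strand): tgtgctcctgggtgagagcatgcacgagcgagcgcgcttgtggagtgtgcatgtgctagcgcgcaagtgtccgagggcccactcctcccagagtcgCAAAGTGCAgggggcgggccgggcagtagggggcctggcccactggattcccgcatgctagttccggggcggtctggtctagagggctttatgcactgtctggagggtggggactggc
Cubn (chr2:13491877-13492126, - strand): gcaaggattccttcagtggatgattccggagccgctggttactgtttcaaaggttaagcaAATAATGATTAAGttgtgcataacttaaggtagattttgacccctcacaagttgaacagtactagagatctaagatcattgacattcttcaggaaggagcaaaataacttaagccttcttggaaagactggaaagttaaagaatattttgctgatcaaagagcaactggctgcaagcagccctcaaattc
Amn (chr12:111270846-111271094, + strand): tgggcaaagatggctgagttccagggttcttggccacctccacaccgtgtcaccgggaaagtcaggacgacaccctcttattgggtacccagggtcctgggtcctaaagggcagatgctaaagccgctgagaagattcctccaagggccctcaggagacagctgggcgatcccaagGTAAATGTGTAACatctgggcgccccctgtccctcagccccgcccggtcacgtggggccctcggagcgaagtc
Clcn5 (chrX:7319359-7319608, - strand): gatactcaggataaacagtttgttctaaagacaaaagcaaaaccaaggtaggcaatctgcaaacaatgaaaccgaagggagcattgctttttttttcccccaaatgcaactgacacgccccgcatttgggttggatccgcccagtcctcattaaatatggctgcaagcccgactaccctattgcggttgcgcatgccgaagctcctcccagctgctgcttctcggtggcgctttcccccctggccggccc
Ocrl (chrX:47912206-47912386, + strand): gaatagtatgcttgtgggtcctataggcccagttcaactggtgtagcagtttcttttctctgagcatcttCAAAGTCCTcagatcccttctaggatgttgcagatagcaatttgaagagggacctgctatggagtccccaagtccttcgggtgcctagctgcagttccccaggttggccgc

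The HNF1 element was searched on both strands as GTTAAT and ATTAAC around 1 base of any kind, with up to 3 mismatches in all, which 7.58% of 32841 mouse promoter windows of this length contain. It matched in Cubn at positions -190 to -178 from the start site (AATAATGATTAAG) and in Amn at -74 to -62 (GTAAATGTGTAAC), each with 3 mismatches. The HNF4 element, searched as CAAAGTCCA with at most 1 mismatch, occurs in 7.06% of windows. It matched in Lrp2 at -154 to -146 (CAAAGTGCA), in Ocrl at -180 to -172, and in the second Dab2 window. An exact GTTAAT, the left arm of the HNF1 element, was present in 6.43% of windows and among the members in the second Dab2 window only, and an exact TATAAA, the TATA box, was present in 12.4% of windows and among the members in the second Clcn5 window only. The receptors' windows also differed in composition. The Lrp2 window is 66.4% G or C with 18 CpG dinucleotides, and that of Cubn is 39.6% G or C with 2, against medians of 52.4% and 6 over all windows. These matches describe letters in the windows and were not tested for binding.

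Libraries held from 26471762 to 40510754 counts, with a median of 32721214.5. Expression is given below as counts per 1000000 (CPM) of the library size after TMM scaling, with SD over mice. The injury transcripts Havcr1 and Lcn2, which encode KIM-1 and NGAL, averaged 2.10 and 3.90 CPM with vehicle and 583 and 1239 CPM with cisplatin. The 18 proximal tubule markers, which include no member, summed to 30100 to 32100 CPM with vehicle, 30000 to 31700 with KW6002, 10500 to 16700 with cisplatin, and 14000 to 22000 with both drugs. With cisplatin, 17 of these markers fell and 1, Pck1, rose. Podocyte markers summed to between 469 and 614 CPM over all groups, though 4 of the 6 fell and 2 rose with cisplatin. Markers of macrophages, which express Dab2, summed to 198 to 489, 181 to 541, 266 to 383, and 151 to 253 CPM in the same order of groups. Thick ascending limb markers summed to 4680 to 7750 CPM with vehicle and 2050 to 2360 with cisplatin. Those of the distal convoluted tubule summed to 1870 to 2120 and 72.4 to 184 CPM, and those of collecting duct principal cells to 335 to 572 and 565 to 832 CPM. In whole-kidney RNA, fewer cells of a type and less RNA per cell cannot be told apart.

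In vehicle-treated kidneys, megalin mRNA was by far the most abundant of the members. Corrected for exon length, Lrp2 stood at 217.7 ± 20.1 CPM per kilobase (SD, n = 5), followed by Dab2 at 97.9 ± 7.95, Amn at 71.9 ± 10.3, Cubn at 60.5 ± 5.27, Clcn5 at 15.9 ± 1.43, and Ocrl at 3.11 ± 0.21. The order of Amn and Cubn was reversed in 1 of the 5 mice, and their ranges overlapped. With cisplatin, Dab2 became the most abundant per kilobase at 64.7 ± 4.45 (SD, n = 5), above Amn at 38.2 ± 7.44, Lrp2 at 34.4 ± 6.14, and Cubn at 23.5 ± 2.85, and the ranges of Amn and Lrp2 overlapped. With both drugs, Lrp2 again had the highest mean, 88.4 ± 12.3 CPM per kilobase (SD, n = 6), over a range that overlapped that of Dab2 at 71.1 ± 6.58.

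Cisplatin lowered the mRNA of 5 of the 6 members and left Ocrl slightly higher. The loss was deepest for the receptor megalin, intermediate for cubilin and amnionless, and smaller for Dab2 and Clcn5. At an adjusted p below 0.05, 5 members were lower, where 35.9% of all genes tested were, and 1 was higher, where 34.6% were. Under a stricter call, which asked for both an adjusted p under 0.01 and more than 1 unit of log2 change, Lrp2 and Cubn were lower, as were 12.1% of all genes. The median log2 fold change of the 6 members was -0.78, and that of all genes was -0.01. In the same 5 members, no cisplatin library reached the lowest vehicle library, which held in this direction for 27.9% of genes.

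Lrp2 measured 3177, 3419, 3949, 3941, and 3692 CPM in the 5 vehicle-treated mice. It measured 527.6, 481, 535.3, 582, and 746 CPM in the 5 mice given cisplatin. Every cisplatin library was thus far below every vehicle library, and mouse 5 of the cisplatin group kept the most. The mean fell from 3635 ± 336 to 574 ± 103 CPM (SD, n = 5 each), a log2 fold change of -2.66 (SE 0.12, adjusted p = 9.356e-15), and the fitted fold was 0.158. This change stood at percentile 2.73 of the changes of all genes.

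Cubn measured 826, 835, 997, 976, and 888 CPM with vehicle. With cisplatin it measured 317, 371, 306, 350, and 411 CPM. The groups did not overlap, and the mean went from 904 ± 78.7 to 351 ± 42.5 CPM (SD, n = 5 each). The log2 fold change was -1.36 (SE 0.11, adjusted p = 1.483e-10). Amn, the partner that carries cubilin, measured 141, 124, 104, 142, and 152 CPM with vehicle and 59.7, 76.3, 66.2, 58.3, and 91.4 CPM with cisplatin. Its spread was wider relative to its mean in both groups than that of Cubn, and the groups were still apart. Its log2 fold change was -0.91 (SE 0.10, adjusted p = 4.453e-08).

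Dab2, the adaptor, measured 804, 737, 710, 702, and 643 CPM with vehicle and 461, 500, 489, 500, and 424 CPM with cisplatin. The lowest vehicle mouse was above the highest cisplatin mouse, and the log2 fold change was -0.60 (SE 0.07, adjusted p = 2.097e-07). Clcn5, the endosomal exchanger, measured 170, 163, 190, 204, and 184 CPM with vehicle and 119, 106, 113, 117, and 126 CPM with cisplatin. Its cisplatin libraries lay close together, and the log2 fold change was -0.65 (SE 0.07, adjusted p = 8.587e-09). Without TMM scaling, which moved the median of all genes to 0.20, these changes were -0.38 for Dab2 (adjusted p = 0.000183) and -0.43 for Clcn5 (adjusted p = 8.742e-06). Of the 8 macrophage markers, 1 rose and 2 fell with cisplatin, and of the 5 fibroblast markers all rose. The part of these cells in the Dab2 level was not tested.

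Ocrl measured 28.8, 28.4, 33.1, 28.6, and 28.7 CPM with vehicle and 35.5, 32.5, 31.7, 32.6, and 30.2 CPM with cisplatin. Vehicle mouse 3 stood above its group and overlapped the cisplatin range. The log2 fold change was 0.14 (SE 0.05, adjusted p = 0.02114), and this call was lost without the filter on low counts (adjusted p = 0.0586), with the label numbers added to the fit as a covariate (adjusted p = 0.0570), and when vehicle mouse 2, vehicle mouse 4, or cisplatin mouse 1 was left out (adjusted p = 0.0541, 0.0506, and 0.0766). Without TMM scaling it was 0.36.

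**Figure D1:**
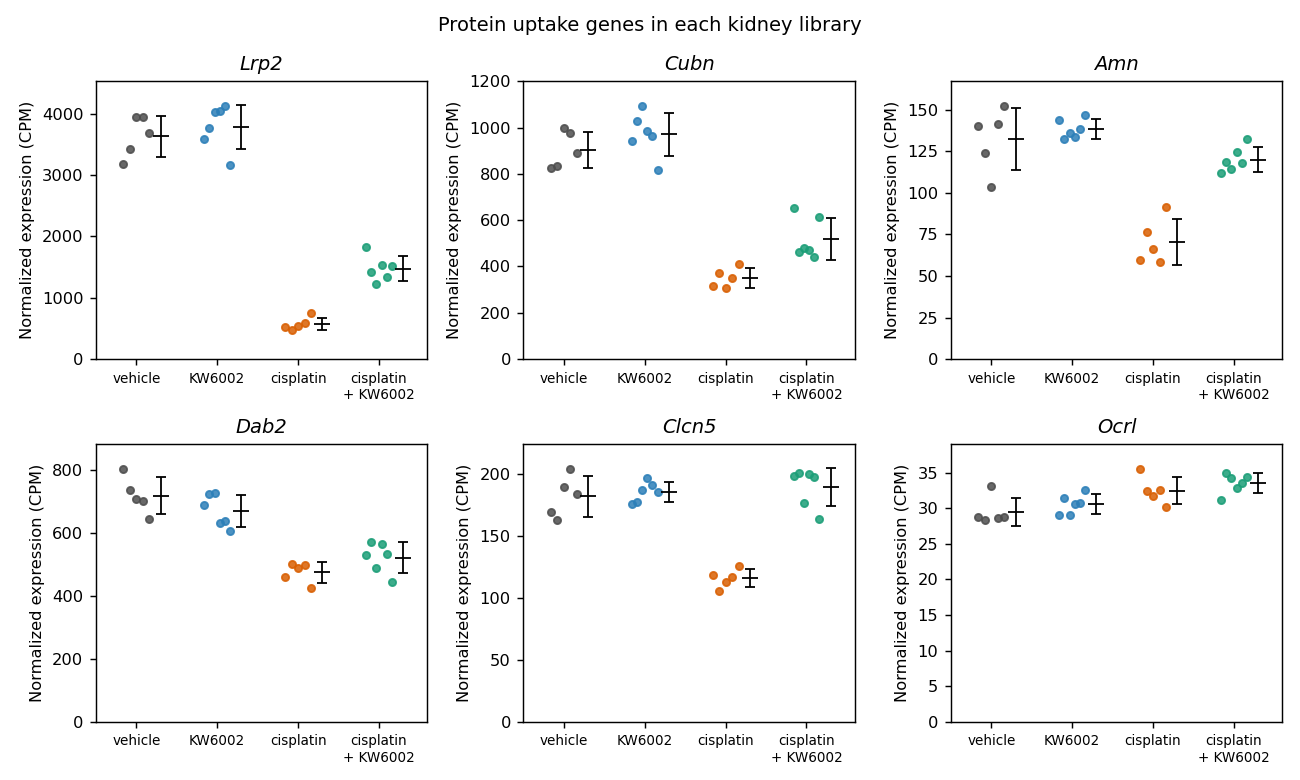
Expression in CPM (linear axis from 0) of each member in each kidney library, by group; points are mice, and the bars beside them are the mean and SD. Lrp2 fell from a mean of 3635 CPM with vehicle to 574 CPM with cisplatin and stood at 1476 CPM with both drugs, whereas Clcn5 with both drugs was at 190 CPM, within the vehicle range, and Ocrl stayed between 28.4 and 35.5 CPM in all groups.

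Adding KW6002 to cisplatin raised 4 of the 6 members above their level with cisplatin alone: Lrp2, Cubn, Amn, and Clcn5. No member was lower. Of all genes tested, 28.6% were higher at this threshold, an adjusted p below 0.05. Lrp2 was the 1 member called at a log2 fold change beyond 1, as were 4.65% of all genes in this direction. The median log2 fold change of the members was 0.64 against 0.01 over all genes. The same 4 members did not overlap between the groups, with every co-treated library higher, which held in this direction for 19.3% of genes.

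With both drugs, Lrp2 ranged from 1226 to 1827 CPM with a median of 1466, above the highest cisplatin library at 746. The mean of 1476 ± 206 CPM (SD, n = 6) was a log2 fold change of 1.36 over cisplatin alone (SE 0.11, adjusted p = 1.065e-09), which is 2.57-fold. Cubn ranged from 439 to 652 CPM with a median of 475, against at most 411 with cisplatin. Co-treated mice 1 and 6 carried the highest Cubn values, at 652 and 614 CPM, and the other 4 lay between 439 and 478 CPM. The log2 fold change of Cubn was 0.565 (SE 0.10, adjusted p = 7.533e-05).

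Amn ranged from 112 to 132 CPM with a median of 118, and its spread over mice was narrower than in the cisplatin group. Its log2 fold change was 0.77 (SE 0.10, adjusted p = 8.317e-07). Clcn5 ranged from 164 to 201 CPM with a median of 198, against at most 126 CPM with cisplatin. Its log2 fold change was 0.71 (SE 0.06, adjusted p = 4.635e-09). Clcn5 was lowest in co-treated mouse 6, which carried the highest Amn value.

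Dab2 and Ocrl did not pass in this comparison. Dab2 ranged from 444 to 572 CPM with a median of 532.2 and overlapped the cisplatin group, whose highest value was 500. Its log2 fold change was 0.14 (95% confidence interval -0.01 to 0.28, adjusted p = 0.1074), an interval that holds both no change and a small rise. It passed when co-treated mouse 6, the lowest of its group, was left out (0.18, adjusted p = 0.0341). Ocrl ranged from 31.2 to 35.0 CPM with a median of 33.9 and a log2 fold change of 0.05 (interval -0.06 to 0.15, adjusted p = 0.4553).

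Set against vehicle rather than cisplatin, the co-treated kidneys fell into 3 kinds. Lrp2, Cubn, and Dab2 were lower, with log2 fold changes of -1.30 (SE 0.11, adjusted p = 9.031e-10), -0.80 (SE 0.10, adjusted p = 6.277e-07), and -0.46 (SE 0.07, adjusted p = 7.735e-06). Of all genes, 29.9% were lower at this threshold, and 7.59% were called lower beyond a log2 fold change of 1, among them Lrp2. Amn and Clcn5 did not pass, at -0.14 (interval -0.34 to 0.06, adjusted p = 0.2142) and 0.06 (interval -0.07 to 0.19, adjusted p = 0.4389). Ocrl was higher by 0.18 (SE 0.05, adjusted p = 0.003075), where 29.8% of genes were higher. No library overlapped between groups in the 3 members that were lower, which held in this direction for 18.5% of genes. Amn passed when vehicle mouse 3, with the lowest vehicle value at 104 CPM, was left out (-0.22, adjusted p = 0.0483). Without TMM scaling, Dab2 was at -0.30 and Ocrl at 0.34 and both still passed, with the median of all genes at 0.16. The comparisons share mice in pairs, and their values are given side by side only.

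**Figure D2:**
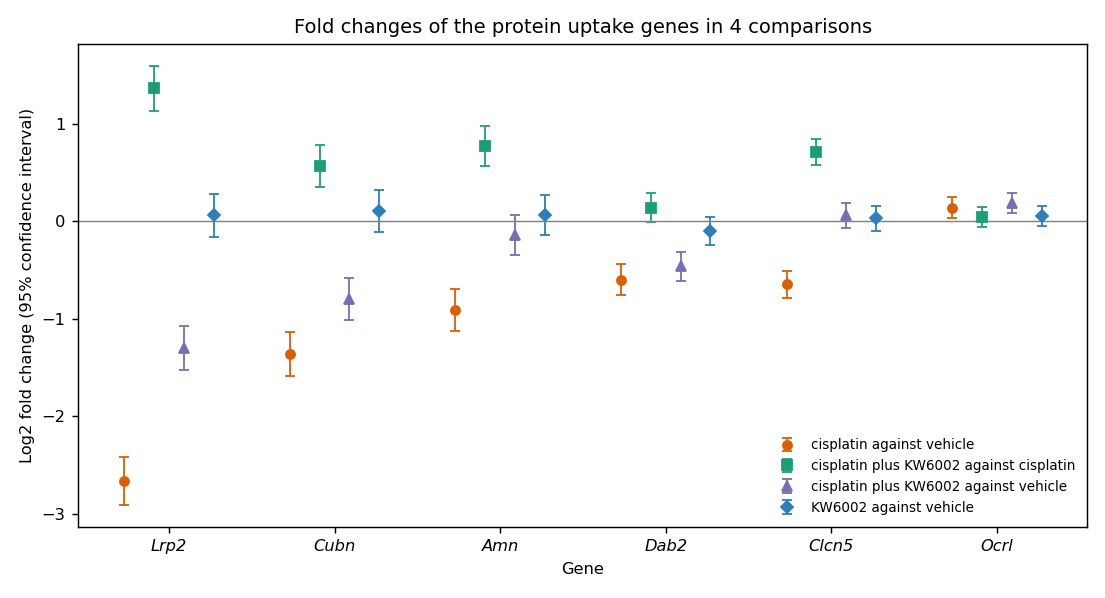
Log2 fold change (vertical axis) of each member in 4 comparisons, with 95% confidence intervals from the edgeR fit of all 22 libraries. Cisplatin against vehicle (circles) runs from -2.66 for Lrp2 to 0.14 for Ocrl, cisplatin plus KW6002 against cisplatin (squares) lies above 0 for Lrp2, Cubn, Amn, and Clcn5, and KW6002 against vehicle (diamonds) has an interval that holds 0 for every member.

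Without cisplatin, KW6002 changed no member detectably. With KW6002 alone, Lrp2 ranged from 3162 to 4123 CPM (median 3897), Cubn from 819 to 1092 (median 974), and Amn from 132 to 147 (median 137). Dab2 ranged from 608 to 729 CPM (median 664), Clcn5 from 176 to 197 (median 187), and Ocrl from 29.0 to 32.6 (median 30.7). All 6 ranges overlapped those of the vehicle group, and 1.38% of all genes had groups that did not overlap. In edgeR's quasi-likelihood test 0 of 6 members passed, where 3 of all genes, 0.0175%, did. At an unadjusted p below 0.05 there were 0 members and 1930 of 17131 genes. Log2 fold changes lay between -0.10 for Dab2 (interval -0.25 to 0.04) and 0.10 for Cubn (interval -0.11 to 0.32), with adjusted p from 0.6029 to 0.9035, and 0.32 was the highest bound of any member.

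The sample labels number 6 of these control mice, 3 of each group, in the 300s and the other 5 in the 500s, together with all cisplatin-exposed mice. What the numbers stand for is not stated. Among mice in the 500s alone, the log2 fold changes of KW6002 against vehicle were -0.01 for Lrp2, -0.02 for Cubn, -0.07 for Amn, and -0.02 for Clcn5, the opposite sign to those over all mice. Among mice in the 300s alone, that of Ocrl was -0.0042 in place of 0.05. None of these values passed. For Dab2, the vehicle mice in the 500s averaged 673 ± 42.1 CPM (SD, n = 2) and those in the 300s 750 ± 48.3 (SD, n = 3), and the KW6002 mice averaged 626 ± 16.3 and 714 ± 21.9 (SD, n = 3 each).

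Whether KW6002 acted differently in cisplatin-treated and untreated mice was tested as an interaction in the same fit. The difference of the 2 effects passed for Lrp2 at 1.30 on the log2 scale (SE 0.15, adjusted p = 6.786e-07), for Amn at 0.71 (SE 0.14, adjusted p = 0.0002845), for Clcn5 at 0.68 (SE 0.09, adjusted p = 2.746e-06), and for Cubn at 0.46 (SE 0.14, adjusted p = 0.01332). Of all genes, 22.8% passed in this direction, and 4.24%, with Lrp2 among them, were called beyond a log2 difference of 1. KW6002 thus raised these 4 transcripts by more in mice that received cisplatin than in mice that did not. For Dab2 the difference was 0.24 (interval 0.03 to 0.45, adjusted p = 0.05922), and for Ocrl it was -0.01 (interval -0.15 to 0.14, adjusted p = 0.9527). The Dab2 difference passed when any 1 of vehicle mouse 5, KW6002 mouse 2 or 3, or co-treated mouse 3 or 6 was left out, with adjusted p from 0.0231 to 0.0487, and with the label numbers as a covariate (0.22, adjusted p = 0.0414).

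The order of the 4 group means differed between members. For Lrp2 and Cubn it was cisplatin, both drugs, vehicle, and KW6002 from low to high, and among neighbours in this order the vehicle and KW6002 groups did not pass. For Dab2 the order was cisplatin, both drugs, KW6002, and vehicle, and neither the lowest pair nor the highest pair passed, with intervals of -0.01 to 0.28 for both drugs against cisplatin and -0.25 to 0.04 for KW6002 against vehicle. For Amn, cisplatin alone was low, and vehicle did not pass against either neighbour. For Clcn5, cisplatin alone was low, and the other 3 groups had means of 182 ± 16.4 (SD, n = 5), 186 ± 8.01 (SD, n = 6), and 190 ± 15.7 CPM (SD, n = 6). For Ocrl all 4 means lay between 29.5 and 33.5 CPM, in the order vehicle, KW6002, cisplatin, and both drugs. Cisplatin and KW6002 alone, and KW6002 alone and both drugs, were not compared by a test.

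Ratios between genes within a library do not depend on library size or on TMM scaling. Of 11 such ratios, 4 were between members, 1 set Ocrl against its relative Inpp5b, and 6 set each member against the mean of the proximal tubule markers. They were compared over the groups by exact two-sided permutation tests of the log2 ratio of counts. The smallest p these can give is 0.007937 for 5 against 5 mice and 0.004329 for 6 against 5, and p-values were adjusted over all 44 tests, of which 28 passed at 0.05.

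Megalin transcripts fell relative to cubilin transcripts. Counts of Lrp2 per count of Cubn averaged 4.02 with vehicle (range 3.84 to 4.16), 3.90 with KW6002 (3.66 to 4.27), 1.63 with cisplatin (1.30 to 1.81), and 2.85 with both drugs (2.46 to 3.24). The 2 groups without cisplatin overlapped each other, and the cisplatin and co-treated groups were each apart from all others. The log2 ratio differed by -1.30 between cisplatin and vehicle (exact permutation p = 0.007937, adjusted p = 0.01343) and higher by 0.81 with both drugs than with cisplatin (exact permutation p = 0.004329, adjusted p = 0.0112). It was still lower with both drugs than with vehicle, with a difference of -0.49 (exact permutation p = 0.004329, adjusted p = 0.0112).

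Cubilin and amnionless act as 1 receptor complex, and their mRNAs did not keep a fixed ratio. Per kilobase, Cubn stood to Amn as 0.862 ± 0.191 with vehicle (SD, n = 5), 0.868 ± 0.111 with KW6002 (SD, n = 6), 0.624 ± 0.0749 with cisplatin (SD, n = 5), and 0.535 ± 0.0989 with both drugs (SD, n = 6). In vehicle mouse 3 the ratio exceeded 1, at 1.19, and in no cisplatin-exposed mouse did it pass 0.740. The log2 ratio of counts differed by -0.45 between cisplatin and vehicle (exact permutation p = 0.02381, adjusted p = 0.03741), and leaving out any 1 of vehicle mice 2, 3, and 4 or cisplatin mice 1, 2, 3, and 5 took the adjusted p to between 0.0722 and 0.0748. Between both drugs and cisplatin it differed by -0.23 (exact permutation p = 0.1169, adjusted p = 0.1659), and by -0.32 without co-treated mouse 1 (adjusted p = 0.0361). Between both drugs and vehicle it differed by -0.68 (exact permutation p = 0.004329, adjusted p = 0.0112).

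The adaptor and the exchanger rose relative to megalin, though both fell themselves with cisplatin. The change of Lrp2 with cisplatin stood at percentile 2.73 of all genes, so most genes rose relative to it. Counts of Dab2 per count of Lrp2 averaged 0.198 with vehicle, 0.177 with KW6002, 0.834 with cisplatin, and 0.355 with both drugs, and in 1 of the 5 cisplatin mice, mouse 2, Dab2 had more counts than Lrp2, at a ratio of 1.04. The cisplatin group lay apart from the other groups, with a log2 difference of 2.08 from vehicle (exact permutation p = 0.007937, adjusted p = 0.01343). Counts of Clcn5 per count of Lrp2 averaged 0.0502, 0.0493, 0.204, and 0.129 in the same order. The log2 ratio differed by 2.03 between cisplatin and vehicle (exact permutation p = 0.007937, adjusted p = 0.01343) and by -0.66 between both drugs and cisplatin (exact permutation p = 0.004329, adjusted p = 0.0112). With both drugs it was still above vehicle by 1.37 (exact permutation p = 0.004329, adjusted p = 0.0112).

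**Figure D3:**
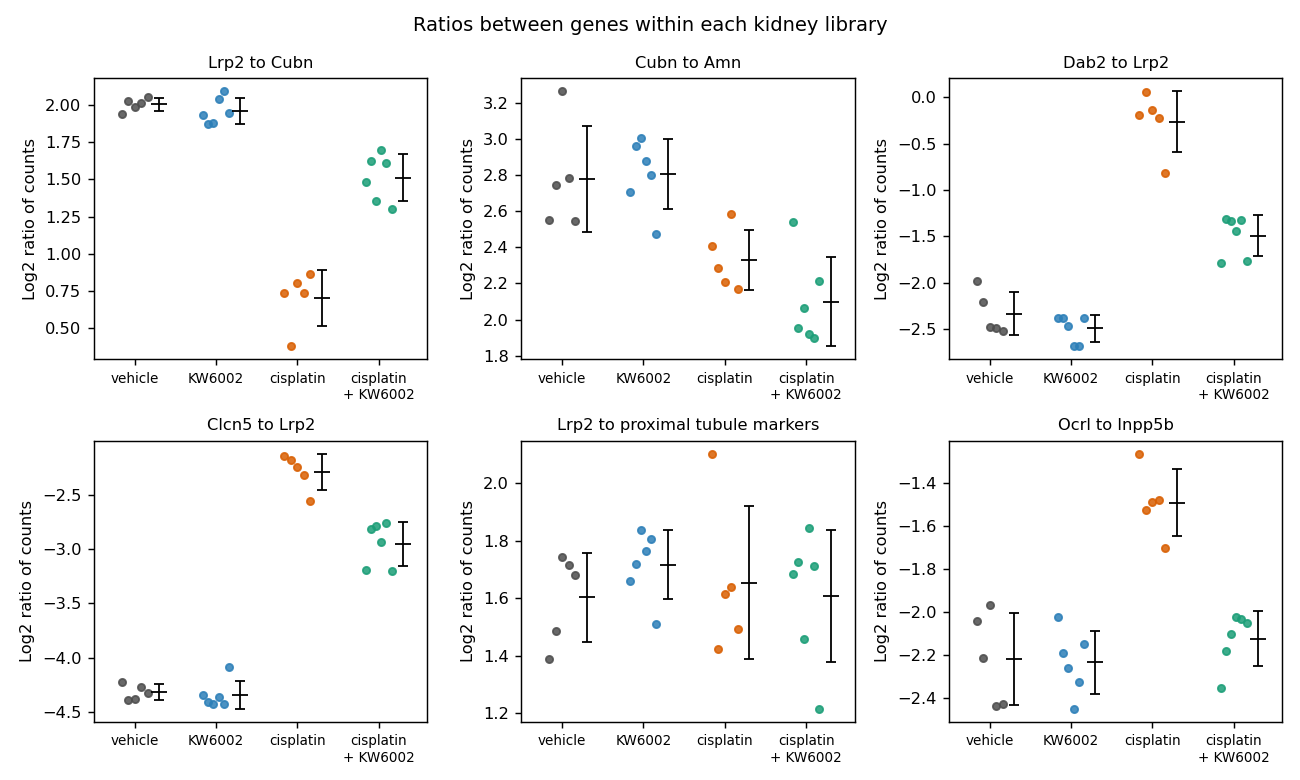
Log2 ratio of the counts of 1 gene to those of another within each library (vertical axes, which do not start at 0), by group; points are mice, and bars are the mean and SD. The cisplatin group stands apart from vehicle for Lrp2 to Cubn, Dab2 to Lrp2, Clcn5 to Lrp2, and Ocrl to Inpp5b, whereas the groups overlap for Lrp2 to the mean of the proximal tubule markers, at 1.60 with vehicle and 1.65 with cisplatin.

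Members were also set against the mean log2 count of the 18 proximal tubule markers. The log2 ratio of Lrp2 to the markers averaged 1.60 ± 0.16 with vehicle (SD, n = 5), 1.72 ± 0.12 with KW6002 (SD, n = 6), 1.65 ± 0.27 with cisplatin (SD, n = 5), and 1.61 ± 0.23 with both drugs (SD, n = 6). None of its 4 comparisons passed, and that of cisplatin against vehicle gave 0.05 (exact permutation p = 0.7778, adjusted p = 0.8362). The markers themselves changed with cisplatin by log2 values from -7.08 for Slc7a13 to 1.05 for Pck1, so this result depends on how they are summarized. With their median in place of their mean, the log2 ratio of Lrp2 to the markers was lower with cisplatin (-0.53, exact permutation, adjusted p = 0.0269) and with both drugs (-0.48, adjusted p = 0.0147) than with vehicle.

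The other 5 members were higher relative to the same markers with cisplatin than with vehicle. The markers themselves changed by a median of -2.07 with cisplatin, against -0.01 over all genes. They changed by 1.13 when KW6002 was added, against 0.01. A gene that did not change therefore also moves relative to them, and the share of all genes that do so was not counted. The log2 differences were 1.36 for Cubn, 1.80 for Amn, 2.13 for Dab2, 2.08 for Clcn5, and 2.86 for Ocrl, with no overlap between groups in any of them (exact permutation p = 0.007937, adjusted p = 0.01343 for each). With the median of the markers in place of their mean these were 0.78, 1.22, 1.55, 1.499, and 2.28, and all 5 still passed (adjusted p = 0.01587). With both drugs all 5 were lower relative to the markers than with cisplatin alone, from -0.62 for Amn to -1.37 for Ocrl (adjusted p from 0.0112 to 0.01411), and still higher than with vehicle by 0.50 to 1.497. With the median of the markers, the differences of both drugs from vehicle were 0.69 for Amn, 0.88 for Clcn5, and 1.01 for Ocrl, and no longer passed for Cubn (0.01, adjusted p = 0.9081) and Dab2 (0.36, adjusted p = 0.0762). With KW6002 alone no ratio of any kind passed.

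OCRL has a close relative, INPP5B, a phosphatase that acts on the same lipids. Inpp5b measured 119, 132, 130, 156, and 155 CPM with vehicle and 85.4, 93.7, 89.1, 90.9, and 98.5 CPM with cisplatin, and it ranged from 134 to 159 CPM with both drugs. It fell by 0.59 on the log2 scale (SE 0.08, adjusted p = 1.046e-06), rose by 0.68 when KW6002 was added (SE 0.08, adjusted p = 2.155e-07), and did not pass between both drugs and vehicle (0.09, adjusted p = 0.3569). Counts of Ocrl per count of Inpp5b averaged 0.215 with vehicle, 0.212 with KW6002, 0.355 with cisplatin, and 0.229 with both drugs. The log2 ratio differed by 0.73 between cisplatin and vehicle (exact permutation p = 0.007937, adjusted p = 0.01343) and by -0.63 between both drugs and cisplatin (exact permutation p = 0.004329, adjusted p = 0.0112). Only vehicle mice 4 and 5, with 156 and 155 CPM of Inpp5b, were numbered in the 500s, as were all cisplatin-exposed mice. Among mice in the 500s alone, the ratio differed by 0.94 between cisplatin and vehicle. Between both drugs and vehicle it differed by 0.31 there, against 0.09 in all mice.

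The other genes of the pathway were described in 8 lists. Median log2 fold changes are set beside those of all genes, -0.01 for cisplatin against vehicle and 0.01 for both drugs against cisplatin, and counts beside the 34.6% of genes higher and 35.9% lower in the first comparison and the 28.6% higher and 27.2% lower in the second. For KW6002 against vehicle no gene of any list passed.

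Of 10 adaptors and chaperones of megalin, 6 fell and 4 rose with cisplatin (median -0.42), and 5 rose and 3 fell when KW6002 was added (median 0.0026). Lrpap1, which encodes the receptor-associated protein that helps megalin fold, fell by 1.08 (SE 0.08, adjusted p = 1.282e-11). It measured 471 to 533.1 CPM with vehicle, 202 to 278 with cisplatin, and 262 to 336.9 with both drugs, the last at 0.26 above cisplatin (adjusted p = 0.004011). The endosomal adaptor Appl2 changed by -0.85 and 0.48, and Snx17, a sorting nexin that recycles receptors of megalin's family, by -0.56 and 0.68.

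Of 15 coat, adaptor complex, and scission genes, 6 rose, 3 fell, and 6 did not pass with cisplatin (median 0.08), and 3 rose, 6 fell, and 6 did not pass when KW6002 was added (median 0.0027). Hip1, which links clathrin to actin, changed by 1.02 with cisplatin and -0.71 when KW6002 was added, and the epsins Epn2 and Epn1 by 0.67 and -0.41 with cisplatin and -0.35 and 0.34 when KW6002 was added. All of these changes of the 3 genes passed.

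Of 18 tested genes of endosome sorting and recycling, 10 fell and 4 rose with cisplatin (median -0.18), and 8 rose and 3 fell when KW6002 was added (median 0.11). Rab11fip3, an effector of the recycling GTPase Rab11, had the deepest fall of the lists' named genes, from 600 to 763 CPM with vehicle to 136 to 183 with cisplatin and 253 to 321 with both drugs. Its log2 fold changes were -2.22 (SE 0.09, adjusted p = 1.069e-15) and 0.92 (SE 0.08, adjusted p = 2.812e-09). Micall1 and Rab11fip1, which also serve recycling tubules, changed by 1.17 and 0.67 with cisplatin. Rab4a, a GTPase of fast recycling, and Vps35, the core of the retromer, rose by 0.51 and 0.46 when KW6002 was added.

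Endosome acidification had more genes lower than the other lists. Of 20 proton pump subunits, chloride/proton exchangers, and related genes, 16 fell and 2 rose with cisplatin (median -0.35), and 12 rose and 2 fell when KW6002 was added (median 0.18). Slc9a3, the sodium/proton exchanger NHE3 that shares early endosomes and the brush border with megalin, changed by -1.65 (SE 0.13, adjusted p = 1.698e-10) and 1.07 (SE 0.13, adjusted p = 2.549e-07). Atp6v1b1, the B1 pump subunit known from intercalated cells, changed by -1.44 and 0.51, and Atp6v0c, the proteolipid of the pump's membrane ring, by -0.77 and 0.50. Atp6v0a1 went against the list at 1.06 with cisplatin. The summed intercalated cell markers ran from 242 to 286 CPM with vehicle and 111 to 156 CPM with cisplatin, and their part in the fall of Atp6v1b1 was not tested.

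Among the 7 tested members of the CLC family other than Clcn5, 3 of which are also in the acidification list, 4 fell and 1 rose with cisplatin (median -0.59), and 4 rose and 1 fell when KW6002 was added (median 0.29). Clcn6, an exchanger of late endosomes, measured 42.6 to 56.0 CPM with vehicle, 22.03 to 24.8 with cisplatin, and 37.5 to 43.8 with both drugs. It changed by -1.02 and 0.82, and Clcn4, a close relative of ClC-5, by -0.66 and 0.29.

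Of 17 phosphoinositide enzymes and OCRL partners, 8 fell and 4 rose with cisplatin (median -0.12), and 8 rose and 4 fell when KW6002 was added (median 0.10). Beside Inpp5b, the 5-phosphatase of cilia Inpp5e changed by -0.67 and 0.43. Pip5k1a, a kinase that makes the lipid OCRL removes, changed by 0.64 with cisplatin, and Pheta1, which binds OCRL, changed by -0.50 when KW6002 was added.

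The 20 genes of ligand salvage and lysosomal breakdown included 11 that fell and 5 that rose with cisplatin (median -0.31) and 11 that rose and 6 that fell when KW6002 was added (median 0.20). Folr1, a folate receptor of the brush border, measured 523.6 to 566 CPM with vehicle, 156 to 250 with cisplatin, and 274 to 367 with both drugs, and fell by 1.48 with cisplatin (SE 0.09, adjusted p = 2.189e-12). Gc, the vitamin D carrier that megalin takes up, went the other way, from 36.4 to 58.4 CPM with vehicle to 973 to 1131 CPM with cisplatin and 367 to 698 CPM with both drugs. Its log2 fold changes were 4.53 (SE 0.20, adjusted p = 5.143e-15) and -0.95 (SE 0.16, adjusted p = 2.983e-05). Ctsd, the lysosomal protease cathepsin D, changed by 1.51 with cisplatin, and Lgmn, the protease legumain, by 0.68 when KW6002 was added.

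Cyp27b1, which activates vitamin D in the proximal tubule, ranged from 7.61 to 19.1 CPM with vehicle, 10.2 to 31.1 CPM with cisplatin, and 66.0 to 117 CPM with both drugs. It did not pass for cisplatin against vehicle (0.25, adjusted p = 0.4284) and was higher by 2.44 with both drugs than with cisplatin (SE 0.27, adjusted p = 9.351e-08). The lowest co-treated mouse was above the highest cisplatin mouse. Rbp4, the retinol carrier, averaged below the expression floor set for named genes and is mentioned because it is the lowest point of its list, at -1.67 when KW6002 was added (adjusted p = 0.00807). Fat cells also express it, and the 4 fat markers were all lower in the same comparison (median -2.92), with summed levels of 130 to 235 CPM with cisplatin and 3.14 to 84.1 CPM with both drugs. For KW6002 against vehicle their median was -1.36 and none of the 4 passed. They summed to 29.1 to 363 CPM with vehicle and 6.21 to 128 CPM with KW6002 alone. Their part in the Rbp4 level was not tested.

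Of 12 tested receptors of megalin's family, 6 fell and 3 rose with cisplatin (median -0.27), and 5 rose and 1 fell when KW6002 was added (median 0.10). Lrp1, an endocytic receptor of many cell types, measured 120, 97.3, 68.7, 133, and 137 CPM with vehicle and 456, 392, 373, 362, and 351 CPM with cisplatin. With both drugs it ranged from 136 to 221 CPM. Its log2 fold changes were 1.80 (SE 0.16, adjusted p = 1.162e-09) with cisplatin and -1.19 (SE 0.15, adjusted p = 6.919e-07) when KW6002 was added, the reverse of Lrp2 in both. Summed fibroblast markers ran from 188 to 323 CPM with vehicle, 690 to 884 with cisplatin, and 348 to 565 with both drugs, and their part in the Lrp1 level was not tested.

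Lrp8, the apolipoprotein E receptor 2, rose from 0.810 to 2.44 CPM with vehicle to 11.3 to 17.2 CPM with cisplatin (2.95, SE 0.22, adjusted p = 6.078e-11) and ranged from 9.10 to 19.5 CPM with both drugs. Lrp11 changed by -0.62 with cisplatin, and Lrp3 by 0.56 when KW6002 was added.

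**Figure D4:**
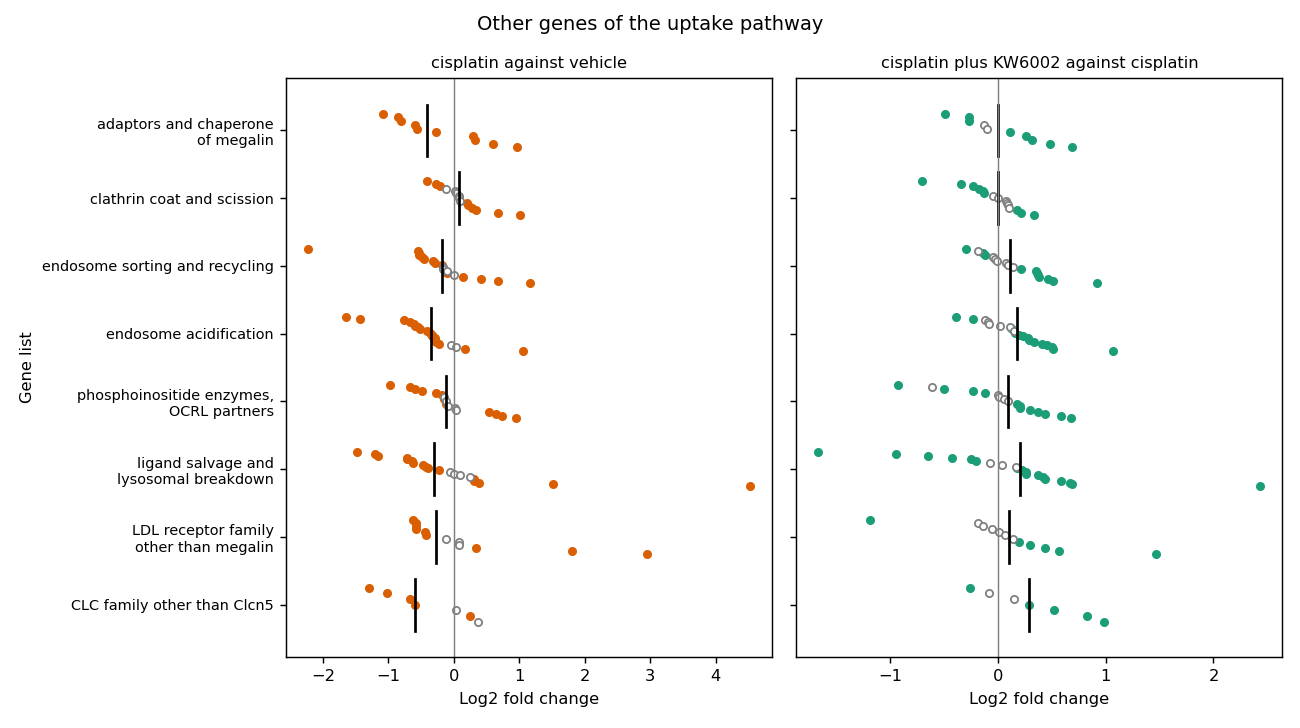
Log2 fold change (horizontal axes, which differ between panels) of each tested gene of the 8 lists, for cisplatin against vehicle (left) and cisplatin plus KW6002 against cisplatin (right); filled points passed an adjusted p below 0.05, open points did not, and vertical bars are list medians. Acidification genes lie mostly left of 0 with cisplatin (16 of 20 lower) and mostly right of 0 when KW6002 was added (12 of 20 higher), while the clathrin coat genes have medians of 0.08 and 0.0027.

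Likeness to each member was measured by Pearson's r of log2 CPM over the 22 libraries, which come from 4 groups, so that any gene with the same group pattern scores high. The value within groups, after each group's mean was removed, is given with it. The genes most like Lrp2 were Cdadc1 (r = 0.991, within groups 0.772), Ndufs1 (0.99 and 0.607), and Far1 (0.989 and 0.614). Those most like Cubn were Slc6a20b (0.985 and 0.806), Pcsk5 (0.985 and 0.83), and F8 (0.984 and 0.793). For Amn they were Rab3ip, Ttc36, and Poldip2 (0.955 to 0.958), for Clcn5 Heatr3, Usp12, and Ppp6r3 (0.96 to 0.972), and for Dab2 Depdc7, Rab11fip4, and Umps (0.924 to 0.936). Ocrl had looser matches in Gmeb2, Scap, and Pomt2 (0.818 to 0.824). Without TMM scaling, 2 of the 3 genes stayed for Lrp2, Cubn, Amn, and Dab2, and 1 for Clcn5 and Ocrl.

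Between members, Lrp2 and Cubn were the pair most alike over the 22 libraries (r = 0.975) and also within groups (0.728). Lrp2 and Clcn5 had an r of 0.8 over all libraries and 0.556 within groups. Lrp2 and Amn, at 0.867 over all libraries, had only 0.132 within groups, and Lrp2 and Dab2 went from 0.85 to -0.202. Amn and Ocrl ran opposite to each other within groups, at -0.519. These values describe libraries that share treatment, sequencing, and scaling.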

How the data were processed

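Kidney RNA of 22 mice was profiled. Per the labels and methods, the authors made stranded poly(A) libraries, demultiplexed with bcl2fastq 2.17.1.14, aligned reads to mm10 with STAR, and counted uniquely aligned reads per Ensembl gene with HTSeq-count 0.6.1p1 in union mode. Whether strand was used in counting is not given in the sources used here. The deposited values are raw counts, whole numbers that the authors did not normalize. Another 66 unnamed columns without values were not used. Symbols, positions, and merged exon lengths came from GENCODE M21, of the same build, which gave a symbol to 32824 of 32858 genes. Promoter windows came from RefSeq.

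Counts were tested with edgeR 4.0.16 in R 4.3.3 in 1 fit of the 4 groups: filterByExpr (10 counts at the median library size, 15 in all), TMM normalization, quasi-likelihood F tests, and p-values adjusted by the method of Benjamini and Hochberg over 17131 genes, which held 99.9% of counts. The biological coefficient of variation was 0.129. A gene passed at an adjusted p below 0.05 and was called when the adjusted p was under 0.01 and log2 change exceeded 1 in size. Intervals are at 95%. In simulated counts for cisplatin against vehicle (16738 genes), the fit recovered 196 of 200 changed genes and called 6 others. Ratios used log2 counts after adding 0.5 and exact permutation tests, run in Python 3.11.15.

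The members and lists were chosen with earlier results of these data known. Named genes were the 6 members, the 3 largest changes per list that passed at an average log2 CPM of at least 3 in each of the 2 cisplatin comparisons, Inpp5b, Lrp1, the 3 genes most like each member, and Havcr1 and Lcn2. Some genes that this rule selects are not reported here. Each mouse is 1 sample, and the p-values judge differences between groups against the variation between mice. No 2 libraries of the same group were duplicates (smallest chi-square per degree of freedom 2.96), and libraries of different groups were not compared in this way. Replicate numbers were not treated as pairs in the main fit. The deviations of same-numbered samples from their group means correlated between -0.175 and 0.405. Differently numbered samples were not compared in this way, so these values cannot decide whether the numbers pair samples. Alternatives were DESeq2 1.42.0, other scalings and filters, fits without the remaining groups, the replicate number as a block, the label numbers as a covariate or a subset (the subset numbered in the 300s was chosen after seeing the data), a test of changes beyond 1 log2 unit, and each library left out.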

Additional observations from a re-analysis of the deposited data

Results flagged for a closer look

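Among 68 groups of values examined for a sample far from the others (24 of members and 44 of ratios), 4 held one, and chance gives about 1 in 20 groups. Ocrl in vehicle mouse 3, at 33.08 CPM, was the highest of its group, with a gap to the next mouse of 0.915 of the group's range against a limit of 0.71. The log2 ratio of Lrp2 to Cubn in cisplatin mouse 2 was the lowest of its group, at 0.374 (gap 0.742 of the range). The log2 ratio of Clcn5 to Lrp2 in KW6002 mouse 6 was the highest of its group, at -4.089 (gap 0.761 against a limit of 0.625 for 6 mice). The log2 ratio of Cubn to the proximal tubule markers in co-treated mouse 6 was the lowest of its group, at -0.08412 (gap 0.653).

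The effect of KW6002 was larger in cisplatin-treated than in untreated mice for 4 members, by the interaction term of the edgeR fit. Of all genes tested, 22.8% passed in this direction. The log2 differences were 1.3025 for Lrp2 (adjusted p = 6.786e-07), 0.4616 for Cubn (adjusted p = 0.01332), 0.7061 for Amn (adjusted p = 0.0002845), and 0.6791 for Clcn5 (adjusted p = 2.746e-06).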

How the results depend on the processing

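When the test asked for more than 1 unit of log2 change, the members that passed went from 6 to 2 for cisplatin against vehicle, from 4 to 1 for both drugs against cisplatin, from 4 to 1 for both drugs against vehicle, and from 4 to 0 for the interaction. Under the other alternatives these counts stayed within 1.5 times the reported ones, and with each library left out they ran from 5 to 6, 4 to 5, 4 to 5, and 4 to 5, with 0 throughout for KW6002 against vehicle. In mice numbered in the 500s alone, 4 genes of megalin's receptor family passed the interaction, against 7 in all mice.

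Signs of small, uncalled log2 changes turned in several fits. With library size alone in place of TMM, which moved the median of all genes to 0.20 for cisplatin and 0.16 for both drugs against vehicle, Ocrl was at -0.016 for both drugs against cisplatin and Amn at 0.014 for both drugs against vehicle, where Clcn5 passed (0.22, adjusted p = 0.007086). For KW6002 against vehicle, mice in the 500s gave -0.0149 for Lrp2, -0.0153 for Cubn, -0.0725 for Amn, and -0.0220 for Clcn5, and mice in the 300s gave -0.0042 for Ocrl. Clcn5 for both drugs against vehicle was -0.0103 with the label numbers as a covariate and -0.0348 in the 500s, and the Ocrl interaction was 0.0076 without the filter. With each library left out, the values for KW6002 against vehicle ran from -0.0117 to 0.119 for Amn and from -0.0090 to 0.0730 for Clcn5, and the Ocrl interaction from -0.0490 to 0.0270. The cause was not tested.

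Of the ratio tests, 28 passed, 27 to 29 did so with each library left out, and 0 passed as a difference of medians, whose ties raise the smallest p it can give. Differences of medians turned sign for Dab2 to Lrp2 with KW6002 against vehicle (0.0528) and for Lrp2 to the proximal tubule markers with cisplatin against vehicle (-0.0638) and both drugs against cisplatin (0.0830). The median of the markers in place of their mean gave -0.528, 0.0454, and -0.483 for Lrp2 with cisplatin against vehicle, both drugs against cisplatin, and both drugs against vehicle. With each library left out these 3 ran from -0.0607 to 0.109, -0.105 to 0.0651, and -0.0492 to 0.0827. For KW6002 against vehicle, Cubn to Amn then ran from -0.0329 to 0.147 and Ocrl to Inpp5b from -0.0713 to 0.0471, and Ocrl to the markers passed without vehicle mouse 3 (0.16, adjusted p = 0.0221).

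Replicate numbers were not treated as pairs in the main fit. With the replicate number as a block, Dab2 passed for both drugs against cisplatin (0.17, adjusted p = 0.0211) and for the interaction (0.24, adjusted p = 0.0274), which brought each of these counts to 5, and no other member's call changed. The block was not fitted for ratios.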
